A study of Mus musculus with 24 samples.

Results

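The genes described here are 30 erythroid genes, a set chosen by name from genes that red cell precursors use, and they were read in RNA of mouse liver. A member was a gene whose symbol in the expression tables equalled a name on the list, and entries with the same symbol were summed. Of the 30 names, 29 were found among 24339 genes; Ahsp is not analysed here. The study measured liver RNA of C57BL/6 mice in 24 libraries, which form 8 groups of 3 replicates. The 4 hCAR-TG groups carry a knock-in of the human receptor CAR and were given CITCO, an agonist of human CAR, or corn oil, at day 60 or day 5 after birth. The 4 wild type (WT) groups were given TCPOBOP, an agonist of mouse CAR, or corn oil, at the same ages. CAR, the constitutive androstane receptor, is a nuclear receptor of hepatocytes that switches on drug-processing genes. Ligand and receptor always differ together, every library is of whole liver, and the construct of the knock-in is not described in the labels. No dose is stated, nor which replicates came from different animals, and p-values measure only the spread between these libraries.

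In mammals the liver is the main site of red cell production before birth, and the bone marrow takes over around and after it. Red cell precursors in the liver build globin chains and heme, then a membrane held by a skeleton of spectrin, ankyrin and band 3, and lose their nucleus. The transcription factors Gata1, Tal1 and Klf1 switch on these genes, and erythropoietin keeps the precursors alive. In bulk liver RNA, fewer cells of a type and less RNA per cell cannot be told apart.

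Values are FPKM, a fragment count scaled by transcript length and by library size, as deposited. Values of single libraries are given in the order of replicates 1, 2 and 3, and group values are mean ± SD with n = 3. The FPKM of a library summed to between 451546 and 502499, and read depth is unknown because the tables hold no counts. The 12 hepatocyte markers, led by Alb, summed to at least 39361 FPKM in every library, so the liver label was met. Of the 12 day 5 libraries, 3 also held pancreas transcripts (summed over 15 genes, CITCO-treated hCAR-TG replicate 1 at 417 FPKM, TCPOBOP-treated WT replicate 2 at 450.0 and corn oil WT replicate 2 at 331, against at most 43.7 in any other library). Read file names close with a number of unstated meaning, called the suffix here. At day 5 no suffix was shared by a CITCO library and a WT library, nor by the corn oil libraries of the 2 genotypes.

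Stretches of promoter are shown first, because many members share a short motif there that few other genes have this close to the start. RefSeq gives windows from 250 bases before to 50 bases after a transcription start (GRCm38.p6), and 21 of the 29 members matched, with 24 windows. The letters AGATAA or TGATAA, the kind of site that GATA factors bind, were searched on both strands. They occurred in 15 of the 24 member windows (62.5%) and in 6115 of all 32851 windows (18.61%). Within 100 bases before the start they occurred in 10 member windows (41.67%) and 2027 of all windows (6.17%). Of these 10 genes, 5 are printed below as the 100 bases before the start, 5′ to 3′ on the gene's strand, with the motif in capitals (TTATCT and TTATCA are the same motifs read from the other strand), and Slc25a38, which has none, follows for contrast. They are a transcription factor, an enzyme, a receptor, a membrane protein and a nuclear protein.
Alas2 (chrX:150547317-150547416, plus strand): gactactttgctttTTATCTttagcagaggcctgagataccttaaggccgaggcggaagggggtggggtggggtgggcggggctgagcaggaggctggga
Klf1 (chr8:84901882-84901981, plus strand): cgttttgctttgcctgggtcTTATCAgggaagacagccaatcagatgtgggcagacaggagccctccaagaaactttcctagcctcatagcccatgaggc
Hemgn (chr4:46404184-46404283, minus strand): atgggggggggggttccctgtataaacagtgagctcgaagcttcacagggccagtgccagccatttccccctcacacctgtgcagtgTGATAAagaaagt
Epor (chr9:21963577-21963676, minus strand): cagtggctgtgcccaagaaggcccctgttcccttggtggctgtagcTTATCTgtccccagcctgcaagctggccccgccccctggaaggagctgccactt
Rhag (chr17:40811049-40811148, plus strand): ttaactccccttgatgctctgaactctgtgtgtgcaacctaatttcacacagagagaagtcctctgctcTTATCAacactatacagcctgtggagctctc
Slc25a38 (chr9:120110282-120110381, plus strand): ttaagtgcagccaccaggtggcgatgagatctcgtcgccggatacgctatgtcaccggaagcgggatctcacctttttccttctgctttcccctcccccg
Counted from the start, the motif began at position -86 in Alas2, -80 in Klf1, -54 in Epor and -31 in Rhag. The Hemgn window held it close to the start on both sides. In Rhd, Kel, Ermap, Icam4 and Tmcc2 it also lay within 100 bases before the start. In Hba-a1, Hba-a2, Gfi1b, Tal1 and Trim10 it lay farther upstream. No such letters were in the windows of Slc25a38, Tspo2, Bpgm, Gata1, Sptb and Trim58. The letters CCNCNCCC, which resemble the sites of Klf1, were found in 14 member windows (58.33%) and in 49.47% of all windows. The letters TGANTCA, the core of Nfe2-type sites, were found in 2 (8.33%, in Kel and Trim10) and in 7.81% of all. These are matches of letters, given as a description with no test.

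Across the 8 groups the levels of the members differed most between the ages. The average over a group was at least 1 FPKM for 28 of 29 members in each hCAR-TG day 5 group, for 26 in TCPOBOP-treated and 20 in corn oil WT livers at day 5, and for 8 to 10 members in every day 60 group. Hba-a1 was the most abundant member in FPKM, and the transcription factors and Hemgn reached at most 10.5 FPKM in any library. Hba-a1 and Hba-a2 are each listed at 2 nearly identical overlapping loci on chromosome 11, so reads were shared between them and their single values are uncertain; their sum is given beside them. The sum was 863 ± 74.1 and 781 ± 114 FPKM in CITCO-treated and corn oil hCAR-TG livers at day 60. At day 5 it was 5684 ± 387 FPKM in CITCO-treated and 8548 ± 1019 FPKM in corn oil hCAR-TG livers. In WT livers it was 658 ± 181 FPKM with TCPOBOP and 1068 ± 182 FPKM with corn oil at day 60, and 4029 ± 451 FPKM with TCPOBOP and 3577 ± 536 FPKM with corn oil at day 5. The corn oil hCAR-TG livers of day 5 thus stood highest, and all day 60 groups lay below all day 5 groups.

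**Figure D1:**
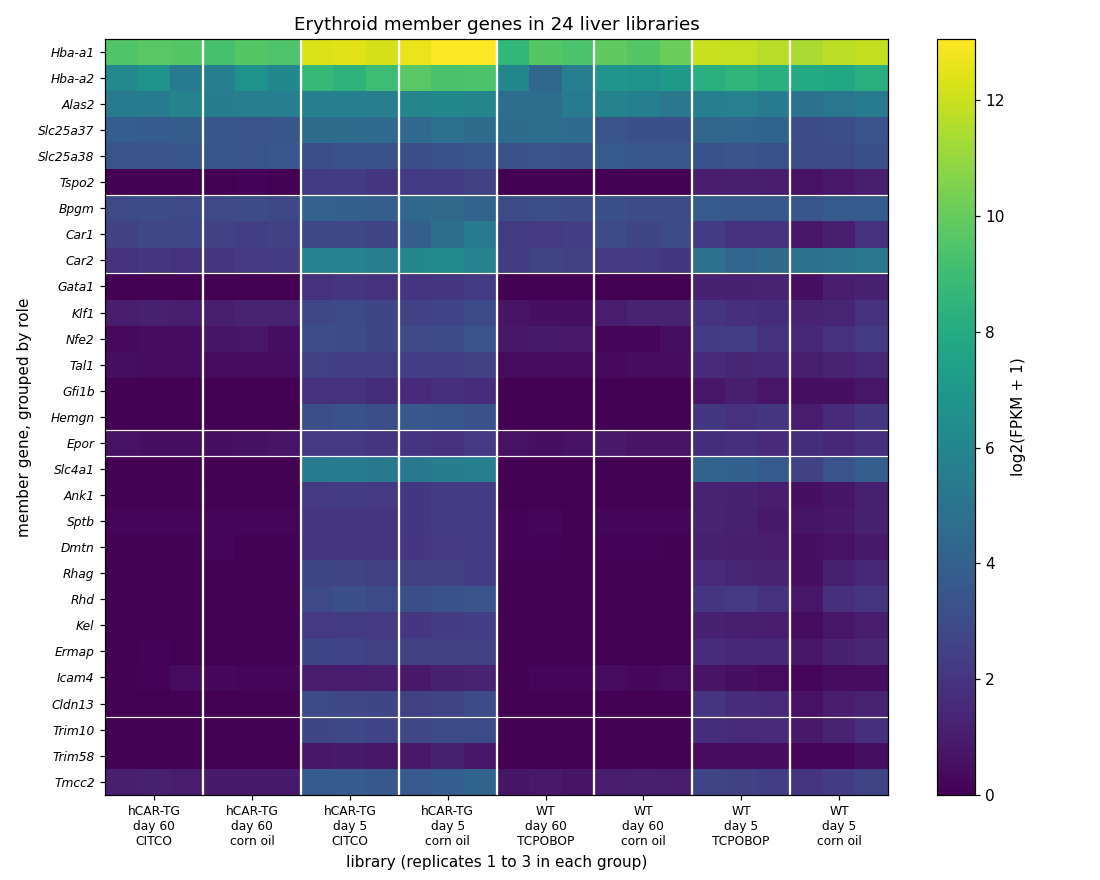
Heat map of log2(FPKM + 1) for the 29 members found (rows, grouped by role) in the 24 libraries (columns, 3 replicates a group). Most rows are near 0 in the day 60 columns, and Hba-a1, Hba-a2 and Alas2 keep colour at both ages.

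The 12 day 60 libraries lay below the 12 day 5 libraries without overlap for 23 of the 29 members (22 of the 28 that were tested; 23.7% of all tested genes did the same). The 6 that overlapped were Alas2, Slc25a37, Slc25a38, Car1, Klf1 and Icam4. Rhag, the Rh-associated glycoprotein of the red cell membrane, and Trim58, a ubiquitin ligase that acts late in red cell maturation, were listed at 0 in all 12 day 60 libraries. Tests used limma on log2(FPKM + 1) over the 12282 genes that reached 1 FPKM in at least 3 libraries, with a call at an adjusted p under 0.05. Of the 28 tested members, 18 passed that filter only through day 5 libraries and Icam4 only through hCAR-TG libraries of day 5. A gene high at day 5 only had to be there to be tested, so the counts of members called are descriptions, and counts without the filter, which bring in Trim58, stand beside them. The shares of all tested genes are of the 12282 filtered genes throughout, so the counts without the filter have no share of their own.

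With age, most of the members fell in WT livers given corn oil, but not all. Higher at day 60 were 3 of 28 members and lower were 23, where 25.2% of all tested genes were higher and 44.9% lower; without the filter the counts were 3 and 23 of 29. The day 60 and day 5 corn oil libraries share no suffix in either genotype. With the suffix as a factor, 3 members were higher and 21 lower in WT livers. That fit links the ages only through other groups of day 60, by TCPOBOP-treated WT replicate 3 and CITCO-treated hCAR-TG replicate 1. It thus rests on those single libraries and on suffix effects being alike in all groups. In hCAR-TG livers the suffix could not be fitted, so age and suffix cannot be told apart there. The members' median log2 change was -0.90, against -0.14 over all tested genes. Slc4a1, the band 3 anion exchanger, had 0.0605, 0.0443 and 0.0548 FPKM at day 60 and 4.82, 8.97 and 14.6 FPKM at day 5. All 3 day 60 libraries were near 0, and the day 5 libraries were spread widely. Its log2 change was -3.20 ± 0.21 (SE, limma adjusted p = 3.93e-11). Car2, a carbonic anhydrase that red cells and other cells use, had 3.57, 3.66 and 3.36 FPKM at day 60 and 29.5, 30.8 and 36.5 FPKM at day 5, a log2 change of -2.87 ± 0.12 (limma adjusted p = 2.62e-14), the lowest adjusted p of the members. The transcription factors and Hemgn, 6 genes together, all fell, by between 0.32 (Klf1) and 1.56 (Nfe2 and Hemgn) on the log2 scale. Gata1, the leading factor of the lineage, was listed at 0 in all 3 WT corn oil libraries of day 60, against 0.444, 1.08 and 1.31 FPKM at day 5. Epor, the erythropoietin receptor, had 0.827, 0.616 and 0.632 FPKM at day 60 and 2.23, 1.89 and 2.35 FPKM at day 5 (log2 change -0.90 ± 0.08, limma adjusted p = 2.58e-09).

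Of the other members, 3 rose and Slc25a37 and Icam4 did not pass the test. Slc25a38, which carries glycine into mitochondria for heme synthesis, had 12.1, 10.8 and 10.5 FPKM at day 60 and 7.05, 6.69 and 8.20 FPKM at day 5, and rose by 0.55 ± 0.09 (limma adjusted p = 1.13e-05) with no overlap. Car1, a carbonic anhydrase of red cells and of the colon, had 7.22, 5.65 and 7.19 FPKM at day 60 and 0.751, 1.17 and 2.75 FPKM at day 5, and rose by 1.66 ± 0.27 (limma adjusted p = 1.72e-05). Alas2, the first enzyme of heme synthesis in red cell precursors, had 56.4, 48.7 and 35.4 FPKM at day 60 and 28.6, 34.2 and 40.2 FPKM at day 5 (log2 change 0.43 ± 0.17, limma adjusted p = 0.0281). The Alas2 groups overlapped, and the call was lost without the 3 libraries that held pancreas transcripts, without day 5 replicate 1 or 2 and without day 60 replicate 1 or 2. Alas2 shares its whole span with Apex2 on the other strand in GENCODE vM21, and the counting is not stated to use strand, so reads of the 2 genes may be mixed. Slc25a37, mitoferrin, the iron importer of mitochondria, had 9.44, 8.01 and 8.10 FPKM at day 60 and 6.81, 7.70 and 9.52 FPKM at day 5, and did not pass the test (log2 change 0.09 ± 0.09); annotated antisense genes overlap it too. Klf1, the factor that drives adult beta globin, had 1.004, 1.39 and 1.47 FPKM at day 60 and 1.35, 1.56 and 2.79 FPKM at day 5, and its fall was no longer called after rescaling of the libraries or without day 5 corn oil replicate 3 or day 60 corn oil replicate 1 or 2.

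In hCAR-TG livers given corn oil, 27 of 28 members were lower at day 60 and 0 higher, where 47.3% of all tested genes were lower and 24.3% higher; without the filter 28 of 29 were lower. The members' median log2 change was -2.23, against -0.17 over all tested genes. After rescaling of the libraries by the median of ratios the median was -2.18 for the members and -0.06 over all tested genes. After it 26 members were lower and Slc25a38 was called higher, while the shares of all tested genes above are those without rescaling. Slc4a1 had 0.0255, 0.0420 and 0.0361 FPKM at day 60 and 38.5, 45.4 and 49.1 FPKM at day 5, a log2 change of -5.45 ± 0.21 (limma adjusted p = 1.03e-14). Car2 had 3.05, 3.49 and 3.85 FPKM at day 60 and 64.4, 71.4 and 54.2 FPKM at day 5, with the lowest adjusted p (log2 change -3.85 ± 0.12, limma adjusted p = 2.39e-16). Hemgn, a nuclear protein of blood precursors, had 0.0130, 0 and 0 FPKM at day 60 and 10.5, 10.4 and 8.41 FPKM at day 5, and Rhd, the Rh blood group protein, had 0.0206, 0 and 0.0167 and 7.82, 8.74 and 9.76 FPKM. Alas2 and Car1, which were higher at day 60 in WT livers, were lower at day 60 here. Alas2 had 44.6, 46.6 and 47.1 FPKM at day 60 and 60.4, 67.7 and 60.8 FPKM at day 5 (log2 change -0.44 ± 0.17, limma adjusted p = 0.0231), a call that was lost after rescaling and without day 5 corn oil replicate 2 or day 60 corn oil replicate 1. Slc25a38 had 10.1, 9.58 and 10.8 FPKM at day 60 and 7.79, 8.64 and 10.3 FPKM at day 5, with overlap.

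**Figure D2:**
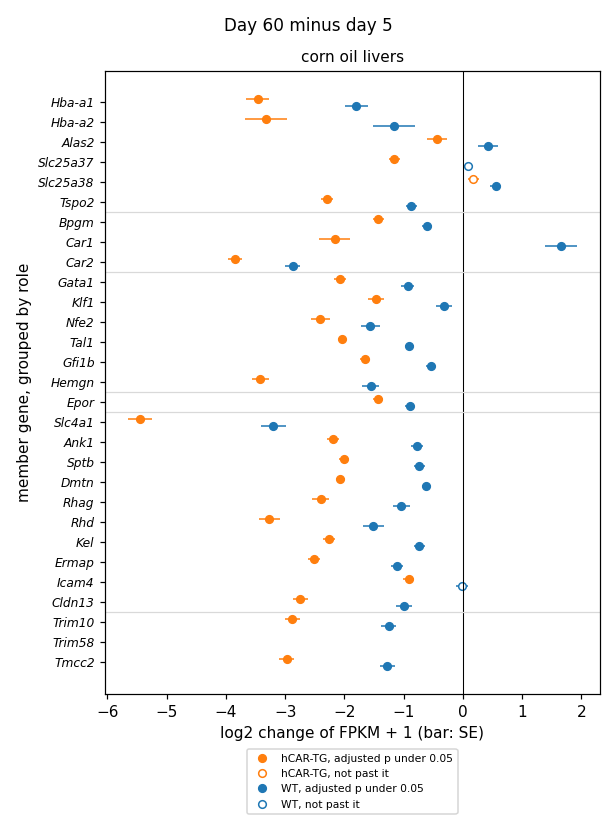
Log2 change of FPKM + 1 between day 60 and day 5 under corn oil for the 28 tested members, in hCAR-TG and WT livers (points are fitted changes, bars are SE, filled points passed adjusted p under 0.05). Slc4a1 lies farthest left at -5.45 in hCAR-TG and -3.20 in WT livers, and Car1 lies on opposite sides of 0 in the genotypes.

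Other blood cell genes, from lists of textbook markers, were lower at day 60 as well. Over all tested genes 44.9% were lower and 25.2% higher in WT livers, and 47.3% were lower in hCAR-TG livers. The counts cover only listed genes that passed the filter, which a gene high at day 5 alone could pass, so they are descriptions. In WT corn oil livers, 4 of 4 other globin genes fell, the adult beta globins Hbb-b1 and Hbb-b2 among them, and 9 of 11 other red cell membrane genes. 10 of 10 megakaryocyte and platelet markers, 12 of 13 neutrophil markers, 6 of 7 B cell precursor markers and 15 of 16 macrophage markers fell too. All 22 cell cycle genes fell. Heme synthesis genes shared with hepatocytes did not follow: 5 of 10 rose and 0 fell. Hamp, which encodes the iron hormone hepcidin, averaged 1173 ± 577 FPKM at day 60 and 3.31 ± 0.967 FPKM at day 5 (log2 change 8.01). In hCAR-TG corn oil livers the lower counts were 4 of 4 other globins, 10 of 11 membrane genes, 10 of 10 megakaryocyte and 13 of 13 neutrophil markers. The part of these other blood cells in the age change of the members was not tested.

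At day 5, nearly every member was higher in corn oil hCAR-TG livers than in corn oil WT livers. Of 28 tested members 27 were higher and 0 lower, where 8.29% of all tested genes were higher and 2.27% lower; without the filter 28 of 29 were higher. After rescaling 27 members were higher, while over all tested genes it gave 6.04% higher and 3.26% lower. The members' median log2 difference was 1.39, against 0.03 over all tested genes. All 3 hCAR-TG corn oil libraries lay above all 3 WT corn oil libraries for 28 of 29 members (27 of 28 tested; 16.3% of all tested genes), the exception being Slc25a38. The 6 hCAR-TG libraries of day 5, CITCO and corn oil, lay above the 6 WT libraries of that age for 26 of 29 members (25 of 28 tested, 2.87% of all tested genes), with overlap in Hba-a2, Alas2 and Slc25a38.

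Globin and heme genes other than Slc25a38 were 1.84-fold (Alas2) to 4.82-fold (Tspo2) higher. Hba-a1 had 6522, 8568 and 8417 FPKM in hCAR-TG livers and 2761, 3423 and 3773 FPKM in WT livers, a 2.36-fold ratio of means (log2 difference 1.24 ± 0.19, limma adjusted p = 0.000213). Hba-a2 had 851, 629 and 656 FPKM in hCAR-TG and 249.7, 222 and 303 FPKM in WT livers. Its call was lost without hCAR-TG corn oil replicate 1 or WT corn oil replicate 2. Alas2 had 60.4, 67.7 and 60.8 FPKM in hCAR-TG and 28.6, 34.2 and 40.2 FPKM in WT livers, 1.84-fold. Slc25a37 had 21.5, 25.9 and 23.7 FPKM in hCAR-TG and 6.81, 7.70 and 9.52 FPKM in WT livers (2.96-fold, limma adjusted p = 9.35e-10). Tspo2, a protein of the translocator family found in red cell precursors, was 4.82-fold higher. Slc25a38 had 7.79, 8.64 and 10.3 FPKM in hCAR-TG and 7.05, 6.69 and 8.20 FPKM in WT livers and did not pass (log2 difference 0.25 ± 0.09, limma adjusted p = 0.0762).

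The transcription factors, and Hemgn grouped with them, were all higher in hCAR-TG livers of day 5, at 2.79-fold (Nfe2) to 4.71-fold (Hemgn). Gata1 had 2.98, 3.21 and 3.58 FPKM in hCAR-TG and 0.444, 1.08 and 1.31 FPKM in WT livers. Tal1, a factor needed from the first blood stem cells on, had 4.39, 4.28 and 4.62 FPKM in hCAR-TG and 1.16, 1.42 and 1.74 FPKM in WT livers (log2 difference 1.16 ± 0.07, limma adjusted p = 9.81e-10). The hCAR-TG libraries lay close together for both genes, and the WT libraries spread more widely. Klf1 had 4.94, 5.08 and 6.58 FPKM in hCAR-TG and 1.35, 1.56 and 2.79 FPKM in WT livers. Gfi1b, a repressor of blood precursors, and Nfe2, a factor for globin and platelet genes, were 4.26-fold and 2.79-fold higher. Epor differed least among the called members, at 3.03, 2.74 and 3.57 FPKM in hCAR-TG and 2.23, 1.89 and 2.35 FPKM in WT livers (1.44-fold, limma adjusted p = 0.00333).

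All 10 genes of the membrane and skeleton were higher in hCAR-TG livers. Dmtn, dematin, which bundles actin in the red cell skeleton, had 3.23, 3.52 and 3.73 FPKM in hCAR-TG and 0.462, 0.583 and 0.939 FPKM in WT livers, with the lowest adjusted p of the members (log2 difference 1.44 ± 0.07, limma adjusted p = 2.3e-10). Slc4a1 had 38.5, 45.4 and 49.1 FPKM in hCAR-TG and 4.82, 8.97 and 14.6 FPKM in WT livers (4.68-fold). Ank1, the ankyrin that ties band 3 to spectrin, was 4.77-fold higher, and Sptb, the beta chain of spectrin, 3.96-fold. Among the blood group proteins, Kel had 3.24, 3.96 and 4.29 FPKM in hCAR-TG and 0.357, 0.731 and 0.963 FPKM in WT livers, Rhag 4.48, 4.64 and 3.79 and 0.434, 1.19 and 1.75 FPKM, and Ermap 4.62, 5.07 and 4.61 and 0.716, 1.27 and 1.65 FPKM. Cldn13, a claudin of blood-forming tissue in mice, was 5.59-fold higher. Icam4, an adhesion protein of red cell precursors, stayed near 1 FPKM in hCAR-TG livers and overlaps an antisense gene in the annotation, as Ank1 and Tmcc2 do. Trim10, a ubiquitin ligase of red cell precursors, was 4.21-fold higher, and the membrane protein Tmcc2 3.57-fold. Trim58, below the filter, had 0.862, 1.30 and 0.715 FPKM in hCAR-TG and 0.115, 0.175 and 0.398 FPKM in WT livers.

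**Figure D3:**
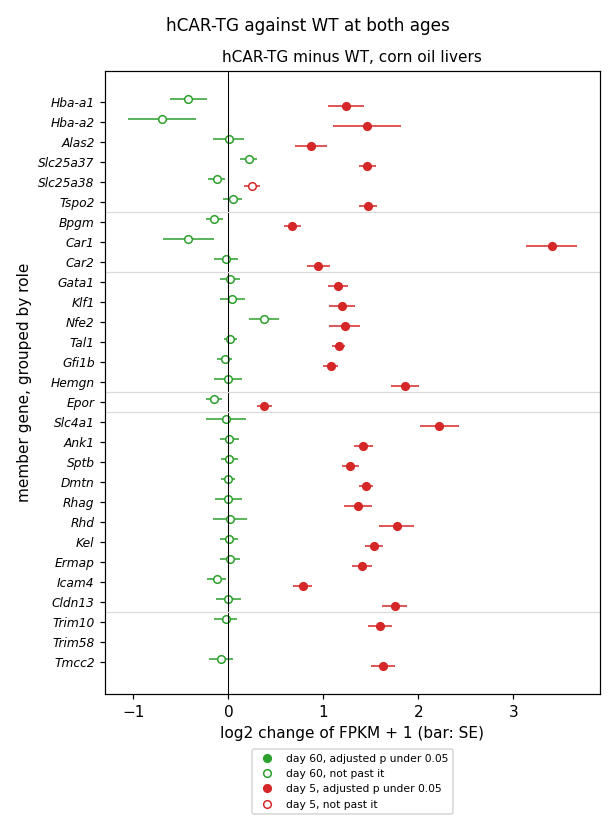
Log2 difference of FPKM + 1 between hCAR-TG and WT corn oil livers for the 28 tested members at day 60 and at day 5 (points are fitted differences, bars are SE, filled points passed adjusted p under 0.05). At day 5 every point lies right of 0, up to 3.40 for Car1, and at day 60 no point passed.

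The red cell enzymes differed unequally. Bpgm, which makes the regulator of oxygen release from hemoglobin, had 19.7, 21.8 and 16.7 FPKM in hCAR-TG and 10.4, 12.1 and 12.9 FPKM in WT livers (1.65-fold), and Car2 had 64.4, 71.4 and 54.2 and 29.5, 30.8 and 36.5 FPKM (1.96-fold). Car1 had 14.3, 25.5 and 40.6 FPKM in hCAR-TG corn oil livers and 0.751, 1.17 and 2.75 FPKM in WT corn oil livers, the most extreme log2 difference of the members (3.40 ± 0.27, limma adjusted p = 5.04e-08). Its hCAR-TG libraries also spread most. The same 3 libraries, in the same order, carried transcripts of the intestine: the mean log2(FPKM + 1) over 10 intestine markers was 2.10, 2.55 and 3.20 there, against 0.97 to 1.24 in the 9 other day 5 libraries. The 10 markers summed to 82.9 to 129 FPKM in hCAR-TG and 69.7 to 83.9 FPKM in WT corn oil livers, a sum led by Fabp2, which hepatocytes also express. Of 8 tested intestine genes 5 were higher in hCAR-TG livers, where 8.29% of all tested genes were higher. Lypd8 averaged 11.2 and 0.457 FPKM, and Defa24 7.81 and 0.158 FPKM, in hCAR-TG and in WT corn oil livers. The part of these transcripts in the Car1 difference was not tested.

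Other blood lineages differed in the same direction at day 5, though not all. Over all tested genes 8.29% were higher and 2.27% lower, as given above. 11 of 13 neutrophil markers were higher in hCAR-TG corn oil livers (median log2 difference 1.37), and the list summed to 1158 to 1517 FPKM in hCAR-TG and 317 to 815 FPKM in WT livers. 9 of 10 megakaryocyte and platelet markers were higher (median 0.84), with sums of 55.7 to 101 FPKM in hCAR-TG and 30.4 to 43.6 FPKM in WT livers. No marker of either list was at 0 in both groups. B cell precursor markers had 0 of 7 higher and 2 lower (Cd79b -0.48, Cd79a -0.40), stem and progenitor markers 0 of 6 in either direction, and macrophage markers 3 of 16 higher and 1 lower. Among further erythroid genes, 8 of 11 membrane genes (Add2 1.32), 3 of 4 globins, 5 of 11 transcription factors (E2f2 0.96) and 7 of 17 enzymes and iron uptake genes were higher, with 0 lower in each list. Hepatocyte markers had 1 of 12 higher and 2 lower. The part of the other lineages in the members' difference was not tested.

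The corn oil libraries of the genotypes at day 5 have no suffix in common, so genotype and suffix cannot be told apart there. Suffix 4 was shared by 2 corn oil hCAR-TG libraries and the 3 TCPOBOP-treated WT libraries, which also differ in treatment: 28 of 29 members lay above in hCAR-TG (27 of 28 tested; 33.5% of all tested genes), and Slc25a38 lay below (30.8%). CITCO-treated hCAR-TG libraries lay above TCPOBOP-treated WT libraries for 26 of 29 members (25 of 28 tested; 29.3% of all tested genes). Leaving out each replicate in turn gave 26 to 28 members higher.

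At day 60 no member passed the test between the genotypes. Under corn oil 20 of 29 members in hCAR-TG and 19 in WT livers averaged under 1 FPKM, and 14 in each genotype under 0.1. At such low levels the test could hardly pass, so for these members a missing call does not show that the genotypes were alike. The corn oil libraries of the genotypes share no suffix at this age either. Between corn oil hCAR-TG and WT livers, 0 of 28 members were called by limma (0 of 29 without the filter), where 3.05% of all tested genes were higher and 1.85% lower, and 3 members had an unadjusted p under 0.05. With a pseudocount of 0.1, 1 member, Nfe2, was called. Nfe2 had 0.684, 0.710 and 0.388 FPKM in hCAR-TG and 0.163, 0.132 and 0.387 FPKM in WT livers, with no overlap, and 13.0% of all tested genes lay above in the same way. Car1, Gfi1b, Slc4a1, Icam4 and Tmcc2 lay below without overlap (11.9% of all tested genes), all but Car1 near or below 1 FPKM. Hba-a1 had 622, 797 and 706 FPKM in hCAR-TG and 938, 794 and 1128 FPKM in WT livers (log2 difference -0.42 ± 0.19), and Alas2 had 44.6, 46.6 and 47.1 and 56.4, 48.7 and 35.4 FPKM. When both ligand groups were added, the 6 hCAR-TG and the 6 WT libraries overlapped for all 29 members, where 1.36% of all tested genes lay above and 2.12% below without overlap.

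The age change was lower in hCAR-TG than in WT livers for 27 of 28 members and for 28 of 29 without the filter, among them members that rose (Car1, Alas2) or were not called (Slc25a37) in WT livers (where 4.84% of all tested genes had a lower and 2.10% a higher age change; 3.99% and 2.95% after rescaling). This difference uses the same 12 corn oil libraries as the genotype comparisons, so it is no separate evidence. For Dmtn the age change was -2.07 in hCAR-TG and -0.62 in WT livers (difference -1.45 ± 0.11, limma adjusted p = 3.48e-08). For Car1 it was -2.17 in hCAR-TG and 1.66 in WT livers (difference -3.82 ± 0.38, limma adjusted p = 2.67e-06), beside the intestine transcripts given above. Slc25a37 fell with age in hCAR-TG livers (-1.16) and did not pass in WT livers (0.09), with a difference of -1.25 ± 0.13. Slc25a38 was not called (difference -0.37 ± 0.12, limma adjusted p = 0.0773).

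**Figure D4:**
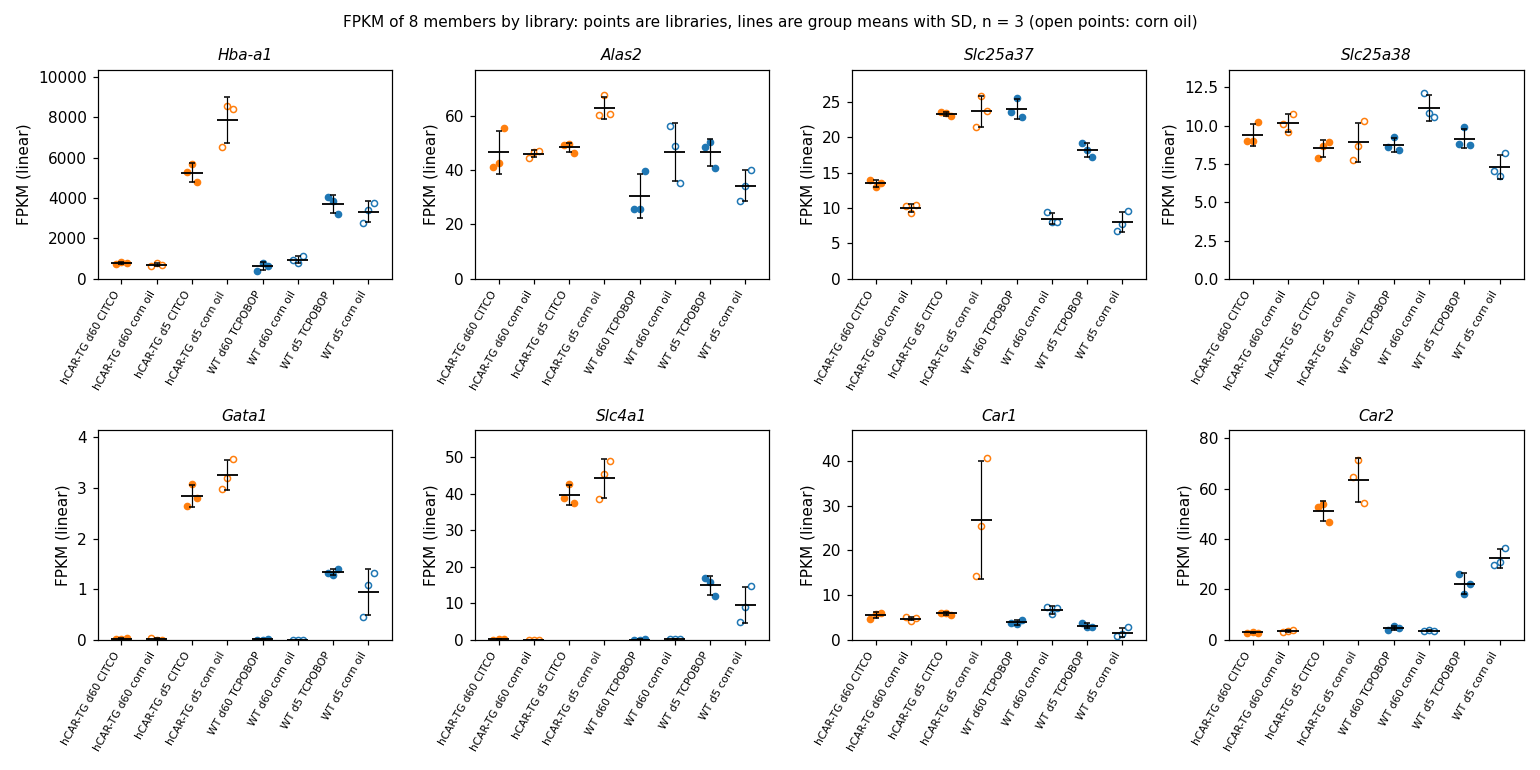
FPKM of 8 members in each library by group on linear axes (points are libraries, horizontal lines are group means, bars are SD, n = 3, open points are corn oil). Gata1 and Slc4a1 are near 0 in every day 60 group, Slc25a37 is above corn oil in both TCPOBOP groups, and Car1 reaches 40.6 FPKM in corn oil hCAR-TG livers of day 5.

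At day 5 many members were modestly higher with TCPOBOP in WT livers. Of 28 members 17 were higher and 1 lower than with corn oil, where 24.6% of all tested genes were higher and 11.3% lower (18.8% and 17.3% after rescaling, with 12 members higher and 1 lower; without the filter 13 of 29 were higher and 1 lower). The members' median log2 change was 0.34, against 0.04 over all tested genes. Slc25a37 had 19.2, 18.2 and 17.3 FPKM with TCPOBOP and 6.81, 7.70 and 9.52 FPKM with corn oil, with a wide gap between the groups (log2 change 1.10 ± 0.09, limma adjusted p = 3.99e-09). Cldn13 had 3.06, 2.11 and 1.96 FPKM with TCPOBOP and 0.545, 1.09 and 1.45 FPKM with corn oil (log2 change 0.75 ± 0.13, limma adjusted p = 0.000105). Slc4a1 had 16.9, 15.7 and 12.04 FPKM with TCPOBOP and 4.82, 8.97 and 14.6 FPKM with corn oil, and the groups overlapped. Car2 was the member called lower, at 26.2, 18.01 and 22.3 FPKM with TCPOBOP and 29.5, 30.8 and 36.5 FPKM with corn oil (log2 change -0.53 ± 0.12, limma adjusted p = 0.00179). Both alpha globins did not pass, with log2 changes of 0.16 ± 0.19 for Hba-a1 and 0.37 ± 0.36 for Hba-a2.

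The day 5 WT corn oil libraries differed among themselves in a common direction. Replicate 1 was lowest in 26 of 29 members and replicate 3 highest in 28. Without corn oil replicate 1 the count called with TCPOBOP was 9, without TCPOBOP replicate 1 it was 9, and without TCPOBOP replicate 2 it was 11. Without the 3 libraries that held pancreas transcripts it was 7 (6 higher and 1 lower), and in a fit of these 2 groups alone it was 9. Of the 18 calls, 8 held whichever replicate was left out: Slc25a37, Cldn13, Dmtn, Car2, Kel, Gfi1b, Ank1 and Ermap. Treatment and suffix cannot be told apart in this comparison. Cell cycle genes moved with the members: 11 of 22 were higher with TCPOBOP (Cdc20 1.002, Rrm2 0.84), with sums of 343 to 370.4 FPKM against 223 to 319 FPKM with corn oil. Of other cell types, 3 of 7 B cell precursor markers (Vpreb1 1.25, Igll1 1.06, Dntt 0.58) and 5 of 16 macrophage markers (Csf1r 0.50) were higher and 0 lower. Of the stem and progenitor markers, Hlf (-0.96) and Kit (-0.27) were lower and no other passed. Over all tested genes 24.6% were higher and 11.3% lower, as given above. The B cell list summed to 26.6 to 34.02 FPKM with TCPOBOP and 16.8 to 24.4 FPKM with corn oil, and the macrophage list to 903 to 1047 and 764 to 797 FPKM. Among 4 other globins, 13 neutrophil markers and 10 megakaryocyte markers 0 were called. Of the other red cell membrane genes Cd47 (0.31), Slc14a1 (0.34), Add2 (0.27), Gypc (0.33) and Tmod1 (0.23) were higher and no other passed. Of the other erythroid transcription factors E2f2 (0.68) and Lyl1 (0.24) were higher and no other passed. Other erythroid enzymes and iron uptake genes went both ways, more of them higher (Glrx5 0.72), with Cpox (-0.63), Steap3 (-0.67) and Blvrb (-0.22) lower. The part of these genes in the members' change was not tested.

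At day 60 TCPOBOP moved few members, and in both directions. Of 28 members 3 were higher and 5 lower, where 31.4% of all tested genes were higher and 15.8% lower (25.6% and 22.7% after rescaling, with 2 members higher and 7 lower; without the filter 2 of 29 were higher and 5 lower). The members' median log2 change was -0.01, against 0.06 over all tested genes. In these groups 15 of 29 members with TCPOBOP and 14 with corn oil averaged under 0.1 FPKM, where the test could hardly pass. Slc25a37 had 23.5, 25.5 and 22.9 FPKM with TCPOBOP and 9.44, 8.01 and 8.10 FPKM with corn oil, the lowest adjusted p (log2 change 1.39 ± 0.09, limma adjusted p = 4.2e-11). TCPOBOP replicates 1 and 2 share suffix 1 with the corn oil libraries and lay in the same range as replicate 3. Nfe2 had 0.768, 0.895 and 0.886 FPKM with TCPOBOP and 0.163, 0.132 and 0.387 FPKM with corn oil (log2 change 0.60 ± 0.16, limma adjusted p = 0.00388), all under 1 FPKM. Car2 had 3.96, 5.44 and 4.50 FPKM with TCPOBOP and 3.57, 3.66 and 3.36 FPKM with corn oil (log2 change 0.31 ± 0.12), a call that was lost after rescaling, without the filter, with the suffix as a factor, with the replicate number as a block, and whichever replicate was left out except TCPOBOP replicate 1.

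The members lower with TCPOBOP at day 60 were Hba-a1, Hba-a2, Klf1, Alas2 and Slc25a38. Hba-a1 had 396, 789 and 658 FPKM with TCPOBOP and 938, 794 and 1128 FPKM with corn oil (log2 change -0.68 ± 0.19, limma adjusted p = 0.00656), a call that was lost without TCPOBOP replicate 1. Hba-a2 had 61.8, 19.6 and 47.8 FPKM with TCPOBOP and 111, 102 and 131 FPKM with corn oil, the most extreme change (-1.53 ± 0.36, limma adjusted p = 0.00162). Reads are shared between the alpha globins, so this value is uncertain: the lowest Hba-a2 library, at 19.6 FPKM, had 789 FPKM of Hba-a1. Their sum, given above, was lower with TCPOBOP as well. The beta globins, no members of the list, were called lower too (Hbb-b1 -0.87 ± 0.17 and Hbb-b2 -0.81 ± 0.18), and the beta globin sum was 572 ± 143 FPKM with TCPOBOP and 1018 ± 129 FPKM with corn oil. Klf1 had 0.613, 0.435 and 0.403 FPKM with TCPOBOP and 1.004, 1.39 and 1.47 FPKM with corn oil, without overlap (log2 change -0.62 ± 0.14, limma adjusted p = 0.000681). Alas2 had 25.8, 25.7 and 39.8 FPKM with TCPOBOP and 56.4, 48.7 and 35.4 FPKM with corn oil, where 1 library of each group crossed (log2 change -0.61 ± 0.17). Slc25a38 had 8.60, 9.27 and 8.41 FPKM with TCPOBOP and 12.1, 10.8 and 10.5 FPKM with corn oil (log2 change -0.32 ± 0.09). The first enzyme of heme synthesis in hepatocytes, Alas1, averaged 145 ± 24.2 FPKM with TCPOBOP and 32.4 ± 7.996 FPKM with corn oil (2.14 ± 0.44, limma adjusted p = 0.000616), and Cpox, a later enzyme of the same path, 15.5 ± 1.63 and 41.8 ± 3.26 FPKM (-1.38 ± 0.08). All 22 cell cycle genes were higher, where 31.4% of all tested genes were higher. Among the other erythroid transcription factors, E2f2, a factor of the cycle that is also used in red cell maturation, changed by 1.84 ± 0.15. The further called genes of that list were lower: Ldb1 (-0.33), Cbfa2t3 (-0.25) and Lmo2 (-0.19).

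In hCAR-TG livers of day 5, few members passed the test for CITCO. Of 28 members 0 were higher and 3 lower, where 8.27% of all tested genes were higher and 8.82% lower; without the filter 2 of 29 were lower. The members' median log2 change was -0.14, against 0.01 over all tested genes. Car1 had 6.05, 6.08 and 5.51 FPKM with CITCO and 14.3, 25.5 and 40.6 FPKM with corn oil (log2 change -1.90 ± 0.27, limma adjusted p = 8.39e-05), beside 6 of 8 intestine genes that were lower too, with a mean log2(FPKM + 1) of the list at 0.97 to 1.24 with CITCO or in WT livers, as given above. Hba-a1 had 5296, 5687 and 4770.0 FPKM with CITCO and 6522, 8568 and 8417 FPKM with corn oil (log2 change -0.57 ± 0.19, limma adjusted p = 0.0476). Bpgm had 16.3, 15.2 and 14.7 FPKM with CITCO and 19.7, 21.8 and 16.7 FPKM with corn oil (log2 change -0.31 ± 0.09, limma adjusted p = 0.0233). With the suffix as a factor the Hba-a1 and Bpgm calls were lost and Tspo2 and Tmcc2 were called lower. That fit sets the CITCO libraries against corn oil replicate 3 alone, the only corn oil library with their suffix and the one highest in intestine transcripts. In the runs with a replicate left out, 1 call was left without corn oil replicate 2, CITCO replicate 2 or CITCO replicate 3. Slc25a37 had 23.6, 23.4 and 23.1 FPKM with CITCO and 21.5, 25.9 and 23.7 FPKM with corn oil (log2 change -0.02 ± 0.09), and Slc4a1 had 38.98, 42.7 and 37.5 and 38.5, 45.4 and 49.1 FPKM. The beta globins outside the list were called lower, with log2 changes of -0.60 ± 0.17 for Hbb-b1 and -0.63 ± 0.18 for Hbb-b2 (limma adjusted p = 0.02 and 0.0203). Of 13 neutrophil markers 5 were lower and 0 higher (Chil3 -1.19, Ltf -0.92), with a list sum of 580.4 to 1114 FPKM with CITCO and 1158 to 1517 FPKM with corn oil. Of 10 megakaryocyte markers 2 were lower (Itga2b -0.41, Gp1ba -0.31) and of 16 macrophage markers 2. The part of these genes in the members' values was not tested.

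At day 60 CITCO moved 1 member. Slc25a37 had 13.9, 12.98 and 13.5 FPKM with CITCO and 10.3, 9.35 and 10.5 FPKM with corn oil, without overlap (log2 change 0.39 ± 0.09, limma adjusted p = 0.00717), where 4.40% of all tested genes were higher and 3.97% lower; it was the only call without the filter too. CITCO replicate 1, which shares suffix 2 with the corn oil libraries, had 13.9 FPKM. With the suffix as a factor the call was lost. Hba-a1 had 735, 841 and 798 FPKM with CITCO and 622, 797 and 706 FPKM with corn oil, and Alas2 41.1, 42.7 and 55.6 and 44.6, 46.6 and 47.1 FPKM, with overlap in both.

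**Figure D5:**
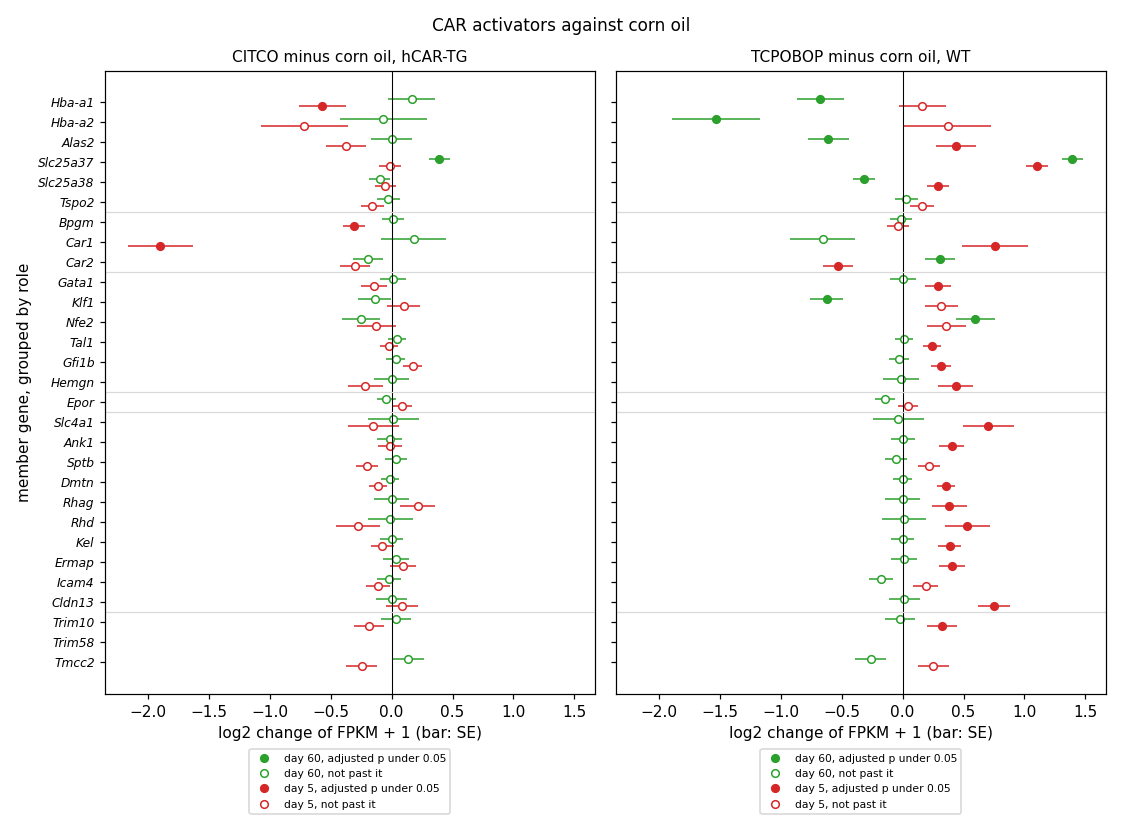
Log2 change of FPKM + 1 with ligand against corn oil for the 28 tested members, CITCO in hCAR-TG and TCPOBOP in WT livers, at day 60 and day 5 (points are fitted changes, bars are SE, filled points passed adjusted p under 0.05). Slc25a37 lies right of 0 with TCPOBOP at both ages, and Car1 lies at -1.90 with CITCO at day 5.

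Differences between the responses followed from these values, and each shares its corn oil libraries with the comparisons above. The TCPOBOP response was lower at day 60 than at day 5 for 12 members and higher for 1 (9.76% and 13.7% of all tested genes; without the filter 9 and 1). For Klf1 it was -0.62 at day 60 and 0.32 at day 5 (difference -0.94 ± 0.19, limma adjusted p = 0.00103). For Hba-a2 it was -1.53 and 0.37 (difference -1.90 ± 0.51), and for Car2, the member with the higher response, 0.31 and -0.53. Single values of Hba-a2 are uncertain because it shares reads with Hba-a1. Among the members with a lower response, Ank1, Cldn13, Dmtn, Gfi1b and Kel had at most 0.0974 FPKM in any WT library of day 60. A response could hardly show at such levels, so for these genes the difference restates the day 5 response. Of the 13 calls, 7 held whichever replicate was left out, and 8 calls were left without corn oil replicate 1 or TCPOBOP replicate 2 of day 5 and without corn oil replicate 3 or TCPOBOP replicate 1 of day 60. Without corn oil replicate 3 of day 5 there were 22 calls, and without the libraries that held pancreas transcripts 6. The CITCO response was higher at day 60 for 2 members and lower for 0 (5.37% and 4.62% of all tested genes; without the filter 1 and 0): Car1, at 0.18 at day 60 and -1.90 at day 5, and Slc25a37, at 0.39 and -0.02. The Slc25a37 call was lost without the libraries that held pancreas transcripts, and of the 12 libraries left out in turn it was kept without day 5 corn oil replicate 1 alone.

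CITCO in hCAR-TG and TCPOBOP in WT livers were also compared with each other, although ligand and receptor differ together. At day 5 the CITCO response was lower for 16 members and higher for 0 (22.2% and 11.5% of all tested genes; 18.4% and 15.3% after rescaling, with 13 members lower; 13 lower without the filter as well). For Slc25a37 it was -0.02 with CITCO and 1.10 with TCPOBOP (difference -1.12 ± 0.13, limma adjusted p = 1.57e-06), and for Car1 -1.90 and 0.76 (difference -2.66 ± 0.38). The count was 8 without WT corn oil replicate 1, 9 without hCAR-TG corn oil replicate 3 or CITCO replicate 1, 10 without CITCO replicate 3, and 5 without the libraries that held pancreas transcripts. At day 60 the CITCO response was higher for 2 members and lower for 3 (9.77% and 24.1% of all tested genes; 14.5% and 19.1% after rescaling, with 4 members higher and 2 lower; without the filter 2 higher and 2 lower). For Slc25a37 it was 0.39 with CITCO and 1.39 with TCPOBOP (difference -1.001 ± 0.13, limma adjusted p = 2.92e-06). For Hba-a2 it was -0.07 and -1.53 (difference 1.46 ± 0.51, limma adjusted p = 0.0324), and for Nfe2 -0.25 and 0.60. The Hba-a2 call did not hold whichever replicate was left out, and its single values are uncertain beside Hba-a1. The count was 3 without WT corn oil replicate 3, TCPOBOP replicate 2, hCAR-TG corn oil replicate 1 or hCAR-TG corn oil replicate 3, and 2 with the suffix as a factor.

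Within groups, many members varied together over the 12 day 5 libraries, most of all in WT corn oil livers. The mean of the members deviated there from its group mean by -0.28, -0.01 and 0.29 on the log2 scale, and in the 9 other libraries by between -0.11 and 0.09. Each value was taken as the deviation from its group mean, and Pearson's r with the mean of the other members is a description over libraries that share depth and input. It was highest for Slc4a1 (0.98), Ank1 (0.97) and Dmtn (0.97), 0.86 for Hba-a1, 0.85 for Gata1, 0.39 for Car2, 0.32 for Epor and -0.01 for Hba-a2. Without the 3 WT corn oil libraries, a choice made after seeing the data, r over the 9 others was 0.95 for Slc4a1, 0.92 for Ank1, 0.93 for Dmtn and 0.96 for Hba-a1, but 0.42 for Gata1, 0.08 for Car2, -0.22 for Hemgn and -0.72 for Hba-a2. Outside the list, E2f2 followed the mean of the members most closely (r = 0.99), then Nde1 (0.97), Add2 (0.96), an entry whose symbol reads as a date (0.96), Ubac1 (0.95), Depdc1b (0.95), Wbscr22 (0.95) and Cenpm (0.94). Over the 9 other libraries r was 0.95 for E2f2, 0.90 for Nde1 and 0.99 for Add2, and lowest for Depdc1b (0.76).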

How the data were processed

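Liver RNA was read in 24 libraries (TruSeq stranded mRNA, per the labels' protocols) of 8 groups of 3. The values used are FPKM per gene in 1 deposited table of 24885 entries a library, per the file headers, with the bounds of an interval and a status. Per the submitters' processing notes the build was mm10. The aligner, quantification tool and annotation are not given in the sources used here. Entries with the same symbol were summed, and 5 genes with a failed estimate were left out, which left 24339 genes. The test took the 12282 genes that reached 1 FPKM in 3 or more libraries.

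log2(FPKM + 1) was fitted with limma 3.58.1 in R 4.3.3 in a single model of the 8 groups (eBayes with trend and robust). Tests were two-sided, p-values were adjusted by Benjamini and Hochberg across the 12282 genes, and 0.05 was the threshold. A log2 change understates the change of low genes because of the pseudocount. Ratios of means are on the FPKM scale. An entry at an exact 0 is called listed at 0, and no fold is given against it. Precision is limited by 3 libraries a group, since the tables give no depth.

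The members and the gene lists were chosen with earlier results of these data known. All 29 members could be named. For other lists at most 4 genes a comparison could be named, those with the lowest adjusted p, with the further names chosen after their values were seen. Besides these, the 8 genes with the highest correlation with the mean of the members over the 12 day 5 libraries were named. Promoter windows came from RefSeq (GRCm38.p6) and overlaps of genes from GENCODE vM21. Alternatives were rescaling of libraries (median of ratios), 0.1 as pseudocount, all genes unfiltered, a minimum of 5 FPKM, the compared groups alone, a replicate block, the suffix as a factor, and each replicate left out in turn. Leaving out the 3 libraries with pancreas transcripts, and the WT corn oil group of day 5 from the correlations, was chosen after seeing the data.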

Additional observations from a re-analysis of the deposited data

Results flagged for a closer look

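The age change was lower in hCAR-TG than in WT livers for 27 of 28 members, by a test of the difference itself (4.84% of all tested genes lower and 2.10% higher). The difference was -1.45 for Dmtn and -3.82 for Car1 on the log2 scale. Under the same kind of test, the TCPOBOP response differed between day 60 and day 5 for 13 members (12 lower and 1 higher; 9.76% and 13.7% of all tested genes), by -0.94 for Klf1 and -1.90 for Hba-a2. The CITCO response differed between day 60 and day 5 for 2 members, both higher (5.37% of all tested genes were higher and 4.62% lower), by 2.08 for Car1. The other was Slc25a37, a call lost without most of the single replicates, as given above. Between CITCO in hCAR-TG and TCPOBOP in WT livers the response differed for 16 members at day 5, all lower (22.2% of all tested genes were lower and 11.5% higher), by -1.12 for Slc25a37 and -2.66 for Car1. At day 60 it differed for 5 members (3 lower and 2 higher; 24.1% and 9.77% of all tested genes), by -1.001 for Slc25a37 and 1.46 for Hba-a2. This last Hba-a2 call did not hold whichever replicate was left out. Both Hba-a2 differences are uncertain because the gene shares reads with Hba-a1. Each difference shares corn oil libraries with others, and groups of 3 are too small for a test of single outlying libraries. The Car1 differences all use the day 5 corn oil hCAR-TG libraries that held intestine transcripts, and the part of these transcripts was not tested.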

How the results depend on the processing

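No member that was called changed sign under any alternative run. With a filter at 5 FPKM, which keeps 17 members, the counts of members called were 10 for TCPOBOP at day 5, 15 and 16 for age in WT and hCAR-TG livers, 16 for genotype at day 5 and 16 for the difference of the age changes; the lower number of members tested bounds these counts. In fits of the compared groups alone, 9 members were called for TCPOBOP at day 5, 7 for the difference of the TCPOBOP responses between ages and 6 for CITCO against TCPOBOP at day 5. Without the 3 libraries that held pancreas transcripts these were 7, 6 and 5, and the difference of the CITCO responses between ages had 1 call, as it had with no filter. With the suffix as a factor, 0 members were called for CITCO at day 60 and 2 for CITCO against TCPOBOP at day 60. A pseudocount of 0.1 gave 1 call for genotype at day 60. The cause of these shifts was not tested. The suffix could not be fitted for TCPOBOP at day 5, age in hCAR-TG livers, genotype at day 5, the difference of the age changes, the difference of the TCPOBOP responses and CITCO against TCPOBOP at day 5.

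Leaving out each replicate in turn gave 9 to 23 calls for TCPOBOP at day 5, 7 at day 60 in each case, 1 to 4 for CITCO at day 5 and 1 at day 60 in each case. For age it gave 24 to 26 in WT and 26 to 28 in hCAR-TG livers, for genotype 26 to 28 at day 5 and 0 at day 60, and 25 to 28 for the difference of the age changes. It gave 8 to 22 for the TCPOBOP responses between ages, 1 to 2 for the CITCO responses, and 8 to 21 at day 5 and 3 to 6 at day 60 for CITCO against TCPOBOP. Over the called members and each replicate left out, 1225 values kept their call and 191 lost it.

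Replicate numbers are shared by the groups but do not pair the libraries: correlations of same-numbered libraries were between -0.333 and 0.311, and in no comparison was every pair over 0.1. With the replicate number as a block, the number of members called was 16 for TCPOBOP at day 5, 8 at day 60, 3 for CITCO at day 5, 1 at day 60, 26 and 27 for age in WT and hCAR-TG livers, 27 and 0 for genotype at day 5 and day 60, 27 for the age changes, 12 and 1 for the TCPOBOP and CITCO responses between ages, and 16 and 5 for CITCO against TCPOBOP at day 5 and day 60.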

Other observations

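Genes of iron control that are no members also moved. In WT livers Hamp, which encodes hepcidin, averaged 195 ± 28.5 FPKM with TCPOBOP and 1173 ± 577 FPKM with corn oil at day 60 (SD, n = 3; log2 change -2.49 ± 0.86, limma adjusted p = 0.0252). At day 5 it averaged 49.7 ± 14.7 FPKM with TCPOBOP and 3.31 ± 0.967 FPKM with corn oil (log2 change 3.54 ± 0.86, limma adjusted p = 0.00389). In the same livers Hamp2, a related mouse gene, changed with TCPOBOP by -3.51 ± 0.39 at day 60 (limma adjusted p = 5.97e-07) and by 1.78 ± 0.39 at day 5 (limma adjusted p = 0.00152). In hCAR-TG livers of day 5 Hamp was lower with CITCO than with corn oil (log2 change -2.75 ± 0.86, limma adjusted p = 0.0388), where the corn oil libraries ran between 6.28 and 277 FPKM, and it was higher in corn oil hCAR-TG than in corn oil WT livers (3.12 ± 0.86, limma adjusted p = 0.0284). Hamp2 did not pass in either. Both genes were named after their values were seen, and no relation between them and the members was tested.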
